A study of Mus musculus with 6 samples.

Results

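The enzymes that make cholesterol and fatty acids, with the proteins that switch their genes on, were followed in ribosome-bound RNA of PNOC neurons and in whole tissue of the mouse preoptic area, a part of the hypothalamus that controls body temperature. The set holds 31 genes, found by symbol among the 27884 genes of the deposited table. It falls into 8 genes of the mevalonate steps that lead to squalene, 10 genes of the steps from squalene to cholesterol, 4 genes of the sterol-sensing machinery and 9 genes of fatty acid synthesis, elongation and desaturation. All 31 passed the filter on low counts. They were grouped by pathway, and no measured value enters the rule, although earlier results of these data were known when the set was proposed.

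All libraries came from female NuTRAP::Pnoc-Cre mice aged 17 to 18 weeks. In this genotype Cre made under Pnoc control switches on the NuTRAP allele, which puts an EGFP tag on ribosomes. Pnoc is the gene of prepronociceptin, from which the peptide nociceptin is cut, and the tag marks cells that have had Pnoc-Cre activity. For each of 3 replicates the tissue of 3 animals was pooled. RNA on ribosomes captured by an antibody against GFP gave the IP library, and total RNA of the same pool gave the Input library. Both groups therefore carry the same alleles and differ by the purification, and there is no group without Cre and no treatment. The comparison asks which transcripts the tagged cells carry on ribosomes, relative to total RNA of the whole tissue.

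Total counts lay between 48204567 and 51380354 in the IP libraries and between 49068467 and 53056642 in the Input libraries. Levels are given as CPM, the usual depth-scaled count, on library sizes scaled by TMM, where 3 counts correspond to 0.0551 to 0.0651 CPM. Levels of different genes are compared only as the authors' FPKM, which divides by gene length. A gene was called where edgeR's quasi-likelihood test gave a Benjamini-Hochberg adjusted p under 0.05 over 18640 genes, and each ± after a log2 fold change of IP over Input is its SE (n = 3 against 3). Pnoc itself, the check of the labels, was at 47.7, 43.1 and 41.1 CPM in IP replicates 1, 2 and 3 and at 7.51, 11.0 and 13.2 CPM in the Input replicates. Its log2 fold change was 2.06 ± 0.22 (adjusted p = 0.000472). The libraries are bulk samples of pooled tissue, so that fewer cells of a type and less RNA per cell cannot be told apart. IP holds RNA on ribosomes and Input holds total RNA. A fold change can therefore also hold a difference in the share of a transcript on ribosomes, which cannot be told apart either.

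Cholesterol and fatty acids share 1 precursor, acetyl-CoA. The mevalonate steps join acetyl units into isoprenoids and then into squalene, and a second set of enzymes closes squalene into lanosterol and trims it to cholesterol. SREBP proteins, encoded by Srebf1 and Srebf2, are held in the endoplasmic reticulum by SCAP and INSIG proteins while sterols are plentiful, and enter the nucleus when sterols run low, where SREBP-2 acts mainly on cholesterol genes and SREBP-1 mainly on fatty acid genes. Brain cholesterol is made locally, since lipoproteins of the blood do not pass the blood-brain barrier. Astrocytes supply lipids to neurons, and oligodendrocytes use large amounts of sterols and fatty acids for myelin.

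RefSeq promoter sequences (build GRCm38.p6) were at hand for 25 of the 31 members. They were searched on both strands, from 250 bases before the start to 50 after it, for a sterol response element spelled TCACNCCAC, for the CCAAT box and for the GC box GGGCGG, patterns known from SREBP target promoters. The sterol response element in this spelling was found in 1 member, Hmgcs1 (4.0%), against 1.44% of all 27025 genes with a promoter in the table. Other spellings of the element were not searched for, so that the other members may hold one. A CCAAT box was found in 20 of the 25 members (80.0%), against 41.1% of all genes, and a GC box also in 20 of 25, against 38.2%. Such a match is a description of the letters in the window and not a bound site. By role, the CCAAT box was found in 5 of 6 mevalonate members, 9 of 9 members between squalene and cholesterol, 3 of 4 sterol-sensing members and 3 of 6 fatty acid members.

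The 250 bases before the start are shown for Hmgcs1, which holds the sterol response element, and for 4 members that were chosen after their values were seen because their change between IP and Input differed in direction or size: Pmvk, which was higher in IP, and Idi1, Elovl5 and Fasn, which were lower. Capitals mark the sterol response element and each CCAAT box, which reads ATTGG on the opposite strand.
Hmgcs1: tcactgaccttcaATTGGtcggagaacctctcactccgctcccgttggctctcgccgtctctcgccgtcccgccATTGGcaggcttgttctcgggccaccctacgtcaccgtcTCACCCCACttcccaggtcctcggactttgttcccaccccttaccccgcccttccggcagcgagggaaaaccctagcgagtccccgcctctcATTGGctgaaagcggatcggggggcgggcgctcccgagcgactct
Pmvk: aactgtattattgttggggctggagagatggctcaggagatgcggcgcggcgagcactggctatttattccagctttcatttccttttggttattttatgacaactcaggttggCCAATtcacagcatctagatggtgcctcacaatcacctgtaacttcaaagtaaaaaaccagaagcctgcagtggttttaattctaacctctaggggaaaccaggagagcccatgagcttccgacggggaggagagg
Idi1: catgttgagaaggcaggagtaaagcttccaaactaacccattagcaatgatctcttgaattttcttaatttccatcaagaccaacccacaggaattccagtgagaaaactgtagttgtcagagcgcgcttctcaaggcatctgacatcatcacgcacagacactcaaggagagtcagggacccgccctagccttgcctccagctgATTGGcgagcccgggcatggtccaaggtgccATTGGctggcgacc
Elovl5: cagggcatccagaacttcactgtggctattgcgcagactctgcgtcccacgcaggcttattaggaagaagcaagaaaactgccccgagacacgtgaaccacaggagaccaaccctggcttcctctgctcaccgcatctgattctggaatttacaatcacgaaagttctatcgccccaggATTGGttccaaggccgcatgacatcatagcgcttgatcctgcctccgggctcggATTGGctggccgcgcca
Fasn: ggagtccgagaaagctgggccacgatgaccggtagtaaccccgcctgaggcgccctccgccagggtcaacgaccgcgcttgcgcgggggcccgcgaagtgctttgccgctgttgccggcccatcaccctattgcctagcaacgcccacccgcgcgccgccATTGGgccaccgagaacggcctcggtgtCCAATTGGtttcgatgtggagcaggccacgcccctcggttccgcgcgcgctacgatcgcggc
The windows lie at chr13:119690101-119690350 (plus strand) for Hmgcs1, chr3:89454291-89454540 (plus strand) for Pmvk, chr13:8885356-8885605 (plus strand) for Idi1, chr9:77917115-77917364 (plus strand) for Elovl5 and chr11:120824548-120824797 (minus strand) for Fasn. In Hmgcs1 the sterol response element begins 137 bases before the start. CCAAT boxes stand in the windows of the higher gene Pmvk and of the lower genes Idi1, Elovl5 and Fasn. Among the other called members with a sequence, the lower genes Lss, Hsd17b7, Sc5d and Srebf1 also held one. The higher genes Acat2 and Elovl6 and the lower gene Fads2 held none. A link between the box and the direction of change was not tested.

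Of the 31 members, 3 were higher in IP (Acat2, Pmvk and Elovl6) and 11 were lower (Idi1, Lss, Hsd17b7, Sc5d, Srebf1, Fasn, Scd1, Scd2, Elovl5, Fads1 and Fads2), and 17 were not called. These shares are 9.68% higher and 35.5% lower, against 12.9% and 17.1% of all genes tested. The median log2 fold change was -0.18 over the members and -0.07 over all genes tested. In 16 members (51.6%) the IP and Input libraries did not overlap, against 47.7% of all genes tested, so that the share of separated members is close to the background. The log2 fold changes ran from -2.85 for Scd1 to 1.28 for Pmvk. Without both libraries of pool 3 the counts were 0 higher and 6 lower, while over all genes 133 were higher and 742 lower. Without IP replicate 3 or without pool 2, 1 member was called higher. Pmvk, Idi1 and Lss lost their calls only without pool 3, at adjusted p of 0.0693, 0.0529 and 0.11. Srebf1, Scd1, Scd2, Elovl5, Fads1 and Fads2 kept theirs in all 17 alternatives. Of the 11 lower members 6 belong to fatty acid synthesis, 4 to the cholesterol steps and 1 to sterol sensing.

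**Figure D1:**
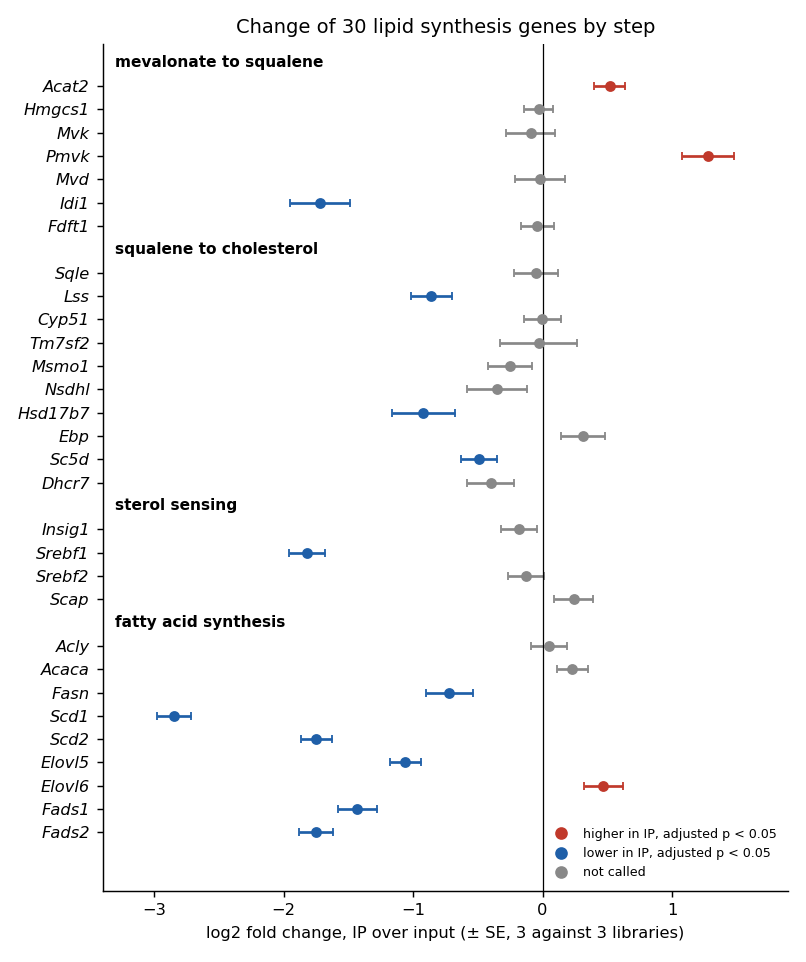
Log2 fold change of IP over Input (x axis) for 30 members grouped by step (y axis), with bars of ± 1 SE from edgeR over 3 IP and 3 Input libraries and colour for the call; Fdps, near the detection limit, is left out. Most members of the cholesterol steps sit near 0, while 6 of the 9 fatty acid genes sit between -0.72 and -2.85.

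Scd1 had the lowest log2 fold change of the set. It encodes stearoyl-CoA desaturase, which puts the double bond into saturated fatty acids, and lies on chromosome 19 from 44382894 to 44396318 (mm39). It was at 259.8, 268.9 and 250.1 CPM in the Input replicates and at 32.9, 35.4 and 40.0 CPM in the IP replicates. The groups were far apart and narrow, with a log2 fold change of -2.85 ± 0.13, a level 7.19-fold higher in Input (adjusted p = 1.76e-05). Scd2, a second desaturase gene on the same chromosome from 44282113 to 44295303, was the most abundant member in both groups. It measured 1470.1, 1287.6 and 1493.0 CPM in Input and 412.9, 399.6 and 452.7 CPM in IP. The log2 fold change of Scd2 was -1.75 ± 0.12, or 3.36-fold higher in Input (adjusted p = 6.05e-05).

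Per length, Scd2 was 4.90 ± 0.548 times as abundant as Scd1 in Input (FPKM ratio within a library, mean ± SD, n = 3) and 10.5 ± 0.642 times in IP. The 3 IP ratios, 10.1 to 11.2, all lay above the 3 Input ratios, 4.29 to 5.34. The exact permutation test, two-sided, gave p = 0.1, the smallest value that 3 against 3 libraries allow. Gene pairs for such ratios were picked with the changes of their genes known.

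The desaturases of polyunsaturated fatty acids, Fads1 and Fads2, lie next to each other on chromosome 19 (10160252 to 10174241 and 10040129 to 10079110), and both fell. Fads1, the delta-5 desaturase, was at 202.9, 264.9 and 219.0 CPM in Input and at 84.4, 76.2 and 93.8 CPM in IP, a log2 fold change of -1.43 ± 0.15 (adjusted p = 0.000439). Fads2, the delta-6 desaturase, was at 129.4, 157.1 and 153.6 CPM in Input and at 45.1, 45.2 and 40.7 CPM in IP, a log2 fold change of -1.75 ± 0.13 (adjusted p = 0.000112). For both genes the lowest Input library was more than any IP library. Both were picked by the test on these libraries, so that this is no further support, and 47.7% of all genes tested did not overlap.

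The elongases went opposite ways. Elovl5, which lengthens polyunsaturated chains, was at 92.0, 95.7 and 88.0 CPM in Input and at 41.8, 43.2 and 47.7 CPM in IP (log2 fold change -1.06 ± 0.12, adjusted p = 0.00072). Elovl6, which lengthens saturated and monounsaturated chains, was at 79.2, 80.7 and 90.7 CPM in Input and at 94.2, 123.4 and 129.5 CPM in IP (log2 fold change 0.47 ± 0.15, adjusted p = 0.0482). The call of Elovl6 was close to the threshold. It was lost with upper-quartile factors and with library totals alone. It was also lost without pool 2, without pool 3 and without any 1 of the libraries other than IP replicate 1, and its adjusted p reached 0.24 over the alternatives. Within a library the FPKM of Elovl6 was 0.499 ± 0.0569 times that of Elovl5 in Input and 1.43 ± 0.172 times in IP (exact permutation p = 0.1), so that the order of these elongases was turned round.

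Fasn, the fatty acid synthase that builds palmitate, was at 220.4, 141.7 and 208.7 CPM in Input and at 118.5, 107.7 and 120.0 CPM in IP. The IP libraries were close together, and Input replicate 2 was nearer to them than the other Input libraries. The log2 fold change was -0.72 ± 0.18 (adjusted p = 0.0167), and the call was lost without IP replicate 2 or 3, Input replicate 3 or pool 3, with an adjusted p of up to 0.17. The genes of the enzymes just before it were not called. Acly, which makes acetyl-CoA from citrate, was at 187.1, 240.6 and 226.4 CPM in IP and at 207.3, 192.8 and 233.5 CPM in Input, with overlapping groups and a log2 fold change of 0.05 (95% interval -0.27 to 0.36). Acaca, which makes malonyl-CoA, was at 65.3, 67.4 and 69.7 CPM in IP and at 62.0, 53.2 and 57.9 CPM in Input, a log2 fold change of 0.23 (95% interval -0.05 to 0.50, adjusted p = 0.20). It was called only in the blocked fit corrected for length and GC content (adjusted p = 0.022). Of 75-base windows of the Acaca transcript 47.42% also occur in the gene model Gm5182, so that its counts depend on how such reads were assigned.

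Over the 9 fatty acid genes the median log2 fold change was -1.06, with 1 higher, 6 lower and 2 not called. These shares are 11.1% higher and 66.7% lower, against 12.9% and 17.1% of all genes tested. The summed level of the 9 genes was 2542.7 to 2794.5 CPM in Input and 1082.1 to 1220.4 CPM in IP. Scd2 was the largest part of the sum in both groups.

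**Figure D2:**
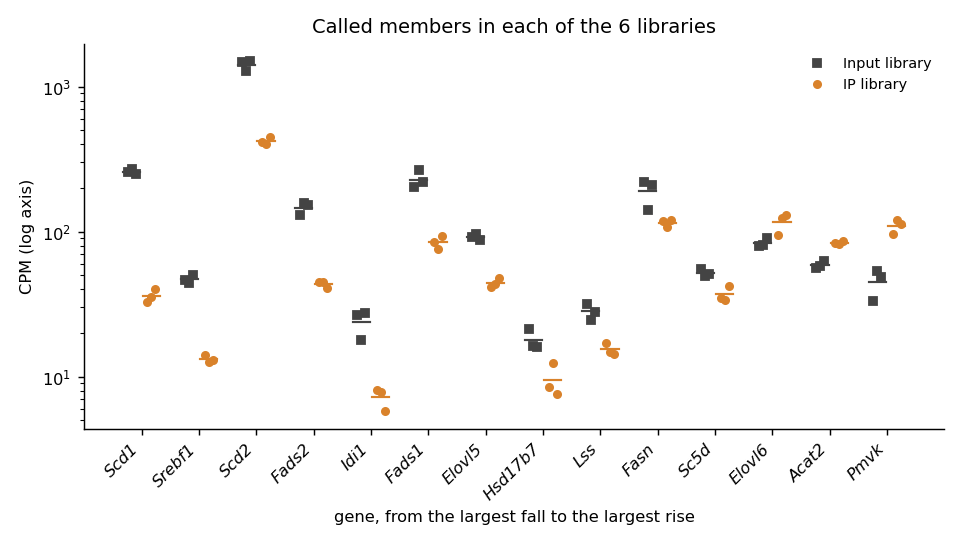
CPM (y axis, log scale) of the 14 called members (x axis, from the largest fall to the largest rise) in each of the 3 Input libraries (squares) and 3 IP libraries (circles), with a line at each group's mean. The 14 genes were picked by the test on these same libraries, so that the lack of overlap between their groups is no further support. Of all genes tested 47.7% did not overlap. The gap is widest for Scd1, at 250.1 to 268.9 CPM in Input and 32.9 to 40.0 CPM in IP.

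The mevalonate steps held both the largest rise and a large fall. Pmvk, phosphomevalonate kinase (chromosome 3, 89361848 to 89376320), was at 96.1, 120.2 and 112.8 CPM in IP and at 33.1, 53.9 and 48.9 CPM in Input. Its level was 2.42-fold higher in IP, a log2 fold change of 1.28 ± 0.20 (adjusted p = 0.00254). The rise was seen in each pool, at 1.54, 1.16 and 1.21 on the log2 scale in pools 1, 2 and 3. Mvk, the kinase of the step before, was not called. It was at 19.9, 25.3 and 27.0 CPM in IP and at 20.6, 29.4 and 26.7 CPM in Input (log2 fold change -0.09, 95% interval -0.52 to 0.35). The FPKM ratio of Pmvk to Mvk was 7.16 ± 0.562 in IP and 2.74 ± 0.199 in Input (exact permutation p = 0.1).

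Idi1, the isomerase that turns isopentenyl diphosphate into dimethylallyl diphosphate, was at 8.08, 7.87 and 5.78 CPM in IP and at 26.5, 17.8 and 27.3 CPM in Input. It was 3.29-fold higher in Input, a log2 fold change of -1.72 ± 0.23 (adjusted p = 0.00138). Of its 75-base windows 20.66% also occur in Idi1 pseudogenes, so that this value depends on the assignment of shared reads. Mvd, the enzyme just before it in the pathway, had a log2 fold change of -0.02 (95% interval -0.46 to 0.42) and overlapping groups.

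Acat2, the cytosolic thiolase that starts the mevalonate steps, was at 83.2, 82.6 and 86.4 CPM in IP and at 56.3, 57.5 and 62.5 CPM in Input (log2 fold change 0.52 ± 0.12, adjusted p = 0.0124). All 3 IP libraries stood above all 3 Input libraries, which is no further support for a gene picked by the test on them. Groups that did not overlap were found in 47.7% of all genes tested. Acat2 shares 32.87% of its windows with its near copy Acat3, which moved the other way, at 0.426, 0.564 and 0.343 CPM in IP and 5.70, 4.79 and 1.82 CPM in Input (log2 fold change -3.20 ± 0.52, adjusted p = 0.00313). Reads of these genes may be split between them, and the sum of both was not tested. The call of Acat2 was lost without IP replicate 3 and without pool 2 or pool 3, with an adjusted p of up to 0.13.

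Hmgcs1, the synthase that makes HMG-CoA and the most abundant cholesterol gene in Input, was at 200.3, 209.5 and 234.7 CPM in IP and at 224.4, 218.4 and 215.3 CPM in Input. The groups overlapped, and the log2 fold change was -0.03 ± 0.11 (95% interval -0.29 to 0.23). Fdft1, which joins farnesyl units into squalene, lay at 101.4 to 122.4 CPM in IP and at 104.0 to 121.2 CPM in Input (log2 fold change -0.04, 95% interval -0.34 to 0.26). Fdps, the farnesyl diphosphate synthase, was barely counted, with 0, 17 and 6 reads in IP and 36, 18 and 40 reads in Input. It shares 17.35% of its windows with pseudogenes, and no fold change is given for it. Unless stated otherwise, medians, sums and counts over the members include Fdps, which is also among the 11 that differed in sign between pools.

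From squalene onward 3 of the 10 genes were lower and 0 higher, with a median log2 fold change of -0.30. The count of higher genes was also 0 by DESeq2 and at an unadjusted p under 0.05 in edgeR. Over all genes tested the shares were 17.1% lower and 12.9% higher. Without IP replicate 1, Input replicate 1, Input replicate 3 or pool 1, only 1 of the 10 genes was lower. Without pool 3 the count of lower genes was 0. Lss, the cyclase that makes lanosterol, was at 17.1, 14.9 and 14.4 CPM in IP and at 31.7, 24.7 and 28.0 CPM in Input (log2 fold change -0.86 ± 0.16, adjusted p = 0.00547). Hsd17b7, a ketoreductase of sterol demethylation, was at 8.49, 12.5 and 7.56 CPM in IP and at 21.4, 16.3 and 16.1 CPM in Input (log2 fold change -0.92 ± 0.24, adjusted p = 0.0204). Sc5d, the sterol C5-desaturase, was at 35.1, 33.7 and 42.3 CPM in IP and at 55.3, 49.5 and 51.0 CPM in Input (log2 fold change -0.49 ± 0.14, adjusted p = 0.0306). In these 3 genes every IP library was below every Input library. The genes were picked by the test on these same libraries, so that this is no further support. Of all genes tested 47.7% did not overlap. The call of Hsd17b7 was lost without replicate 1 or 3 of either group and without pool 1 or pool 3 (adjusted p of up to 0.15). That of Sc5d was lost without IP replicate 1 or 2, Input replicate 1 or 3 or any pool, and in the blocked fit corrected for length and GC content (up to 0.16).

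The remaining 7 genes of these steps were not called. Sqle, the squalene epoxidase, was at 43.3, 44.0 and 56.7 CPM in IP and 41.1, 55.9 and 52.3 CPM in Input (log2 fold change -0.05, 95% interval -0.44 to 0.34). Cyp51, the lanosterol demethylase, was at 50.9, 51.2 and 60.4 CPM in IP and 51.2, 49.9 and 61.4 CPM in Input, with a 95% interval of the log2 fold change from -0.33 to 0.32. Msmo1, the sterol methyl oxidase, was at 58.4, 56.9 and 63.1 CPM in IP and 63.9, 89.1 and 58.9 CPM in Input (log2 fold change -0.25, 95% interval -0.64 to 0.15). The groups of these 3 genes overlapped. Dhcr7 (-0.40), Nsdhl (-0.35), Tm7sf2 (-0.03) and Ebp (0.31), which act on later sterol intermediates, made up the rest, and of them only Ebp had groups that did not overlap.

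Taking the 18 cholesterol genes as one, 2 were higher, 4 lower and 12 not called, with a median log2 fold change of -0.07, equal to that of all genes tested. The shares, 11.1% higher and 22.2% lower, stand beside 12.9% and 17.1% of all genes. Without IP replicate 1, Input replicate 1, Input replicate 3 or pool 1, 2 were lower, without IP replicate 3 or pool 2, 1 was higher, and without pool 3 the counts were 0 and 0. Their summed level was 805.8 to 917.0 CPM in IP and 809.3 to 888.9 CPM in Input, and these ranges overlapped. The sum over the fatty acid genes, in contrast, was lower in every IP library than in any Input library.

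**Figure D3:**
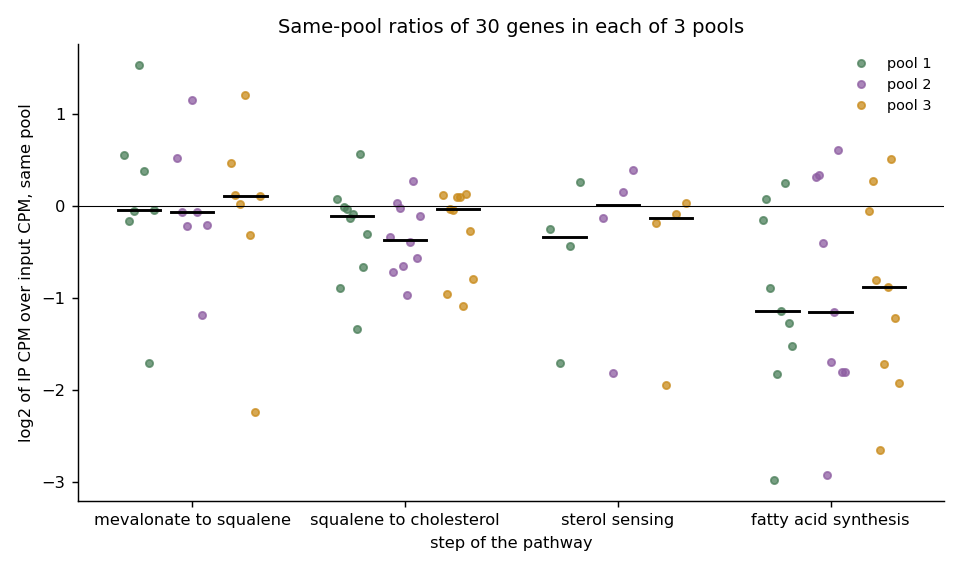
Log2 ratio of IP CPM to Input CPM of the same pool (y axis) for 30 members in pools 1, 2 and 3, grouped by step (x axis), with 1 point per gene and a bar at the median; Fdps is left out. In fatty acid synthesis the medians of the pools were -1.14, -1.15 and -0.88, while those of the other steps lay closer to 0.

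The same-pool ratios of IP to Input gave a direction for each pool. Of the 31 members 6 were higher in IP in all 3 pools (Acaca, Acat2, Ebp, Elovl6, Pmvk and Scap), 14 were lower in all 3, and 11 differed in sign between pools. These shares are 19.4% and 45.2%, against 29.0% and 33.5% of all genes tested. Among the lower genes the ratio varied most for Idi1, at -1.71, -1.18 and -2.24 on the log2 scale, and for Hsd17b7, at -1.34, -0.39 and -1.09. Scd1, at -2.98, -2.92 and -2.65, and Srebf1, at -1.71, -1.81 and -1.95, were steadier. Over 30 members without Fdps the coefficient of variation between replicates had a median of 10.0% in IP and 12.1% in Input, and ran from 2.11% for Hmgcs1 in Input to 31.1% for Nsdhl in Input.

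The SREBP genes separated. Srebf1, which encodes SREBP-1, was at 14.1, 12.6 and 13.1 CPM in IP and at 46.1, 44.1 and 50.4 CPM in Input, 3.54-fold higher in Input (log2 fold change -1.82 ± 0.14, adjusted p = 0.000108). Srebf2, which encodes SREBP-2, was at 130.3, 145.0 and 142.6 CPM in IP and at 175.4, 129.7 and 150.9 CPM in Input, with overlapping groups (log2 fold change -0.13 ± 0.14, 95% interval -0.45 to 0.20). Per length, Srebf2 was 2.54 ± 0.379 times as abundant as Srebf1 in Input and 8.29 ± 0.934 times in IP, with no overlap between the groups (exact permutation p = 0.1). The members whose proteins hold SREBPs back or escort them, Insig1 and Scap, were not called. Insig2, which is not a member, was called higher and is given with the families below. Insig1, a retention protein, was at 51.8, 60.9 and 63.9 CPM in IP and at 61.7, 66.6 and 72.1 CPM in Input (log2 fold change -0.18, 95% interval -0.49 to 0.13), and the escort Scap had a log2 fold change of 0.24 (95% interval -0.10 to 0.57).

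These differences reordered the members by level. In Input the highest mean FPKM values were those of Scd2 (254.1), Scd1 (52.0), Hmgcs1 (46.8), Fads1 (46.7) and Fads2 (43.7), and the ranges of Hmgcs1, Fads1 and Fads2 over the libraries overlapped. In IP the order began with Scd2 (77.1), Pmvk (64.0), Hmgcs1 (46.8), Acly (41.3) and Acat2 (33.0). Scd1 went from the second place in Input to place 21 in IP, where its FPKM was 7.38 ± 0.774 (SD, n = 3), and Pmvk went from place 8 to place 2. Within a library the FPKM of Hmgcs1 was 0.901 ± 0.0307 times that of Scd1 in Input and 6.35 ± 0.122 times in IP (exact permutation p = 0.1).

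Other genes of the same pathways, listed by function, were read beside the members. Of 16 other genes of sterol and isoprenoid synthesis 3 were higher and 2 lower in IP, with a median log2 fold change of -0.08. These shares are 18.8% and 12.5%, against 12.9% and 17.1% of all genes tested. Dhdds, a subunit of the enzyme that makes dolichol, rose from 79.6 ± 5.50 CPM in Input to 120.3 ± 4.80 CPM in IP (SD, n = 3, adjusted p = 0.00753). Erg28, a scaffold of sterol demethylation, rose from 29.3 ± 1.09 to 40.7 ± 2.57 CPM (adjusted p = 0.0233), a call that was lost with library totals alone, without any IP replicate or Input replicate 3, and without pool 2 or pool 3. Lbr, the lamin B receptor and a sterol reductase, fell from 5.91 ± 1.48 to 1.71 ± 0.457 CPM (adjusted p = 0.00561), as did Acat3, given above. Of 25 other genes of fatty acid synthesis 23 were tested, of which 5 were higher (21.7%) and 6 lower (26.1%), with a median of -0.35. The replicate block and library totals alone each called 9 lower, and without pool 3 there were 3. Elovl4, which makes very long chains, rose from 40.7 ± 4.88 to 62.8 ± 5.81 CPM (adjusted p = 0.0129), and Acsl5, an acyl-CoA synthetase, from 30.1 ± 4.55 to 46.0 ± 3.55 CPM (adjusted p = 0.0188). The elongases Elovl7, from 17.3 ± 1.75 to 2.01 ± 0.280 CPM (adjusted p = 6.7e-05), and Elovl2, from 13.0 ± 2.16 to 2.13 ± 0.241 CPM (adjusted p = 0.000222), fell. Dhdds and Lbr lost their calls without pool 3, Elovl4 without IP replicate 2, Input replicate 3 or pool 3, and Acsl5 without those or IP replicate 3. With library totals alone 1 sterol gene was higher and 5 lower, and 2 fatty acid genes were higher. Without IP replicate 2 or 3 the fatty acid list had 1 gene higher, and without IP replicate 1, pool 1 or pool 2 it had 3. The sterol list had 1 higher without any 1 IP replicate, Input replicate 3 or pool 2, and 4 lower without Input replicate 1. Without pool 3 no gene of either list was higher, nor without Input replicate 3 any of the fatty acid list.

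Genes of cholesterol uptake, export and storage gave 0 rises and 8 falls among 18, with a median log2 fold change of -0.48. Falls made up 44.4% of this list, against 17.1% of all genes tested, and rises 0.0% against 12.9%. In edgeR 1 gene was higher at an unadjusted p under 0.05, and DESeq2 and the fit with the replicate block each called 1 higher. Without pool 3 the falls numbered 5. Apoe encodes the main apolipoprotein of the brain, a product of astrocytes and microglia. Its level was 900.1, 1361.6 and 1196.4 CPM in Input and 192.3, 168.6 and 166.7 CPM in IP (log2 fold change -2.71 ± 0.17, adjusted p = 4.86e-05). Abca1, which exports cholesterol to lipoproteins, was at 35.1, 27.0 and 24.9 CPM in Input and at 5.25, 3.66 and 3.83 CPM in IP (log2 fold change -2.77 ± 0.22, adjusted p = 0.000136).

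**Figure D4:**
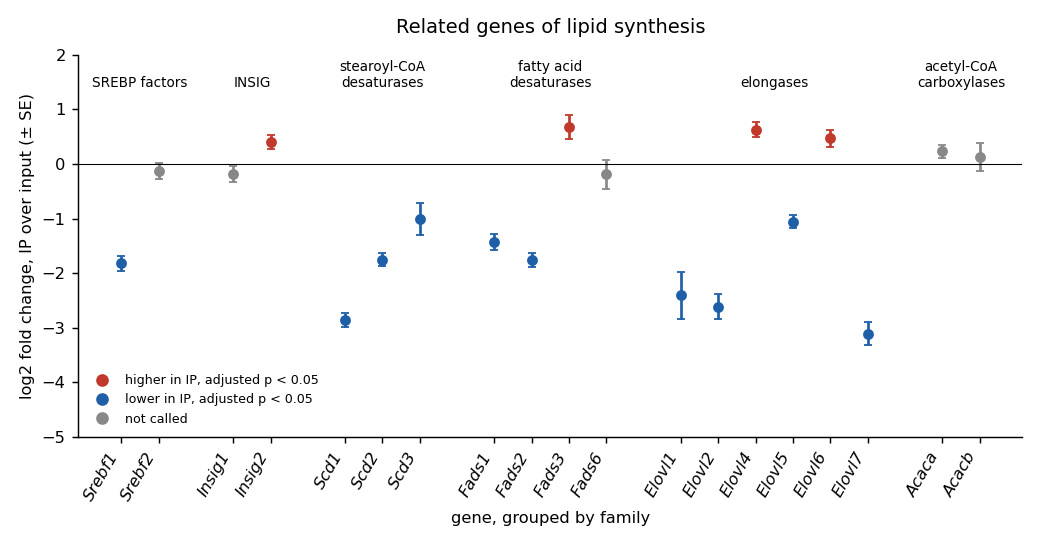
Log2 fold change of IP over Input (y axis, bars ± 1 SE from edgeR, 3 against 3 libraries) for related genes (x axis) in 6 families, with colour for the call. Elongases lie on both sides of 0, from -3.11 for Elovl7 to 0.63 for Elovl4, and Srebf1 stands apart from Srebf2.

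Called genes of opposite sign were found in 2 of the 6 families shown, the elongases and the FADS desaturases. Of the 6 elongases shown, Elovl4 and Elovl6 were higher and Elovl1, Elovl2, Elovl5 and Elovl7 lower in IP. Per length, Elovl4 was 0.515 ± 0.0404 times as abundant as Elovl5 in Input and 1.66 ± 0.208 times in IP (exact permutation p = 0.1). The 3 stearoyl-CoA desaturases that were tested all fell, with Scd3 at -1.01 ± 0.29 (adjusted p = 0.0311). In the FADS family Fads3 was higher (0.68 ± 0.22, adjusted p = 0.0484) while Fads1 and Fads2 were lower, and Fads6 had a log2 fold change of -0.19 with overlapping groups. Insig2 was higher (0.41 ± 0.13, adjusted p = 0.0471) and Insig1 was not called. Acacb, like Acaca, was not called, at 0.13 ± 0.25. Elovl1, Scd3, Fads3, Fads6, Insig2 and Acacb were named after their values were seen. Fads3 and Insig2 lost their calls with upper-quartile factors and with library totals alone, Fads3 also without any 1 library other than Input replicate 2 and without pool 1 or pool 3, and Insig2 without the low-count filter, without the same libraries and without any pool. Scd3 lost its call without replicate 1 of either group, IP replicate 2, Input replicate 3 or any pool, and Elovl1 without pool 3.

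Markers of other cell types moved with the lower members. All 13 astrocyte markers, 12 of 12 oligodendrocyte markers and 9 of 9 genes listed for oligodendrocyte precursors were lower in IP. So were 13 of 13 microglial markers and 8 of 11 endothelial markers. The median log2 fold changes of these lists, in this order, were -2.56, -3.23, -2.85, -3.04 and -2.16. Of all genes tested 17.1% were lower and 12.9% higher. The precursor list includes Bcas1 of maturing oligodendrocytes, so that its count and sum are not specific to precursors. The summed level of the astrocyte list was 4885.4 to 5780.8 CPM in Input and 1179.6 to 1519.1 CPM in IP, that of the oligodendrocyte list 5372.4 to 6852.1 and 705.4 to 1038.7 CPM, that of the precursors 572.6 to 650.5 and 109.6 to 130.7 CPM, that of microglia 233.1 to 291.9 and 26.5 to 40.1 CPM, and that of endothelium 39.3 to 54.7 and 15.2 to 17.7 CPM. No marker of these lists was at 0 in any IP library. The log2 fold change was -3.53 for the astrocyte water channel Aqp4, -3.44 for the myelin gene Mal, -2.85 for Bcas1 of maturing oligodendrocytes, -3.60 for the microglial receptor Csf1r and -3.04 for the endothelial transporter Slco1a4. Of 15 pan-neuronal markers 6 were higher and 1 lower, with a median of 0.48, and of 13 GABAergic markers 6 were higher and 0 lower, with a median of 0.70. With the replicate block 2 pan-neuronal and 2 GABAergic markers were lower, and without pool 3 no pan-neuronal and 3 GABAergic markers were higher. Without IP replicate 2 or 3 or Input replicate 3, 3 pan-neuronal markers were higher. The endothelial count fell to 2 without pool 3 and to 5 without pool 1, pool 2 or replicate 3 of either group. The synaptic vesicle gene Syp rose by 0.84 ± 0.11 (adjusted p = 0.00142) and the transcription factor gene Isl1 by 1.07 ± 0.13 (adjusted p = 0.000944). Syn1, also a synaptic vesicle gene, was the pan-neuronal marker called lower. Its log2 fold change was -0.41 ± 0.13 (adjusted p = 0.0485, close to the threshold). The log2 fold change of Scd1, -2.85, lay within the range of the glial medians, those of Srebf1, Scd2, Fads2 and Idi1 were nearer to 0 than these medians, and that of Pmvk, 1.28, was above both neuronal medians. The part of these cell types in the changes of the lipid genes was not tested.

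**Figure D5:**
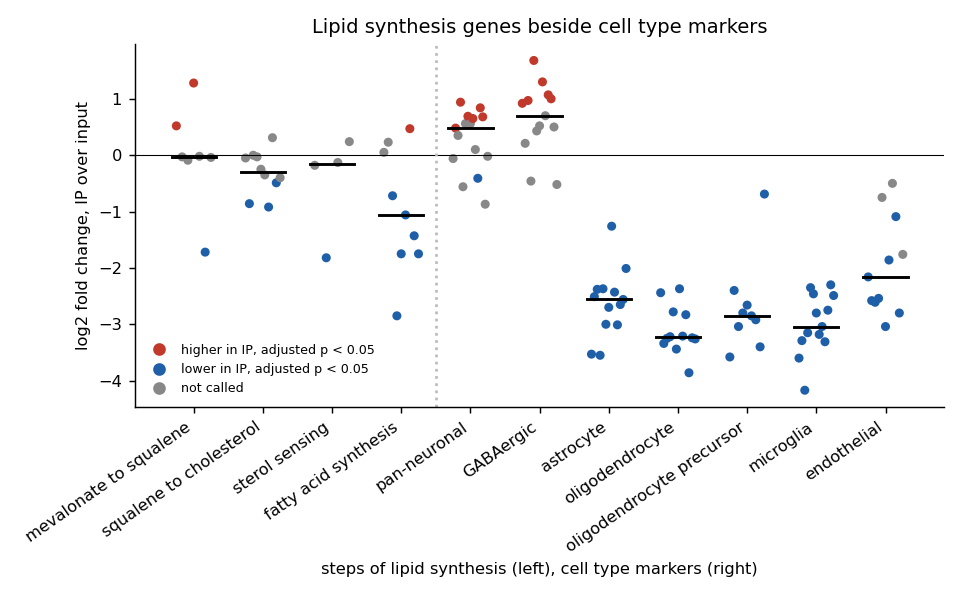
Log2 fold change of IP over Input (y axis) of the lipid synthesis genes by step (left of the dotted line) and of cell type markers by list (right), with 1 point per gene coloured by its call and a bar at the median; Fdps is left out. The fatty acid genes, with a median of -1.06, lie between the other steps of the pathway and the glial lists, whose medians run from -2.56 to -3.23.

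Reads of several members may be shared with other genes. In 7 members more than 5% of the 75-base windows occur in another gene (Acaca, Acat2, Dhcr7, Fdft1, Fdps, Hmgcs1 and Idi1). Exons of 14 members overlap those of a gene on the opposite strand by at least 100 bases, Srebf1, Lss, Fads1, Acat2 and Idi1 among the called ones. Whether counting used strand is not given in the sources used here, and without strand such reads cannot be told apart. Scd1, Scd2, Fads2, Elovl5, Elovl6, Fasn, Pmvk, Hsd17b7 and Sc5d have neither feature. The authors' deposited table calls the same 3 members higher and the same 11 lower.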

How the data were processed

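The submitters' processing notes name HISAT2, featureCounts, DESeq2 and the build mm39, and versions and the strand setting are not given in the sources used here. The deposited counts per gene are the authors' whole numbers without normalization, and only these entered the tests. The deposited normalized signal is the authors' count divided by 1 size factor per library, which was constant over genes within 1e-06. The deposited FPKM is that signal per gene length. The log2 fold changes and p-values of the authors' deposited table are the authors' own, with DESeq2 named in the series' design text.

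The main test was edgeR's quasi-likelihood test (edgeR 4.0.16, R 4.3.3; TMM, filterByExpr by group, group as the one factor, two-sided, Benjamini-Hochberg over 18640 genes), tested on simulated data. The SE is the log2 fold change divided by the square root of F. FPKM ratios of gene pairs were compared with exact permutation tests over libraries, with 7 pairs computed and p = 0.1 for each, also after Benjamini-Hochberg adjustment. The permutation took no account of pools, and the pairs were picked with the changes of their genes known. These p-values are therefore no further support for the changes. Replicates are pools of 3 animals, so that p-values measure the spread between pools. Reads carry no molecular identifiers.

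Same-numbered IP and Input libraries came from the same pool per the series' design text. Their deviations from the group means correlated at 0.264, 0.144 and 0.102, against -0.22 to 0.092 for different numbers. The main fit has no replicate block, which was an alternative.

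The other alternatives were upper-quartile and RLE factors, library totals alone, DESeq2 1.42.0, no low-count filter, a minimum of 1 CPM in each library of either group, the block with splines of 4 degrees of freedom for transcript length and GC content, and each library or pool left out. Length, GC content and shared windows came from GENCODE M39.

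The members and lists were chosen with earlier results of these data known. Named are all members, Pnoc, the 2 smallest adjusted p per direction of each other lipid list and the smallest of each marker list. Outside this rule and after their values were seen, Elovl1, Scd3, Fads3, Fads6, Insig2, Acacb and Syn1 were named. Some other genes of these lists are counted but not named.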

Additional observations from a re-analysis of the deposited data

How the results depend on the processing

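The counts of 3 members higher and 11 lower in IP were within 1.5 times of these values with DESeq2, RLE, upper-quartile factors, library totals alone, no low-count filter, the stricter filter and both blocked fits. With libraries or pools left out they ran from 0 to 3 higher and from 6 to 11 lower. The replicate block gave 3 higher and 11 lower and changed no call of a member; with the length and GC correction as well it gave 4 and 10. The median log2 fold change of the members, -0.18, was -0.29 with library totals alone, -0.25 with the block and the length and GC correction, and between -0.24 and -0.02 with libraries or pools left out. Library totals alone moved the median of all genes by -0.11 and gave 1734 genes higher and 3678 lower, against 2400 and 3191. Of the 14 called members 6 kept the call in all 17 alternatives, and 0 changed sign in any. Of the 17 that were not called 11 changed sign in at least 1 alternative. The 24 calls among other lipid genes numbered between 9 and 26 with libraries or pools left out, and the 55 calls among glial and endothelial markers between 45 and 54. The cause of these differences was not tested. Depth was alike in the 6 libraries. Fdps had 0 to 40 reads, too few for a fold change to be given.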
